A study of Homo sapiens with 16 samples.

Results

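The abundant cytoskeleton genes KRT8, KRT18, KRT19, ACTB, ACTG1, CFL1, TMSB10, TUBA1B, TUBB and TUBB4B were examined across a gut and liver cell chip experiment. The 10 genes were chosen by symbol, as common keratin, actin, actin-binding and tubulin genes, out of 60623 genes listed in each expression file, of which 20747 had a read in at least 1 library. All 10 had reads in all 16 libraries. Caco-2, an intestinal epithelial line from a colorectal carcinoma, and HepG2, an epithelial line from a liver carcinoma, were kept in a microfluidic device either alone (mono-culture) or connected with the other line (co-culture). Each was left without free fatty acids (control) or given free fatty acids (FFAs, a mixture of palmitic and oleic acid at a total of 1 mM, sampled after 1 day according to the labels). That gives 8 groups of 2 libraries of polyadenylated RNA, read as full-length cDNA by Nanopore sequencing after PCR. Cells were maintained in DMEM with fetal bovine serum, the FFAs were given in DMEM with albumin and, by the study's methods, no serum, and the labels name no deletion or transgene. The study describes sequencing both after 1 day and after a longer treatment with FFAs, so the duration behind the FFAs values rests on the labels alone. Its methods speak of independent experiments for mRNA sequencing without tying them to these libraries, and the labels do not say whether the 2 libraries of a group came from separate cultures. The p-values therefore measure the spread between these libraries, which may be technical.

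Keratins form the intermediate filaments of epithelial cells and work as obligate pairs of a type II chain, such as keratin 8, with a type I chain, such as keratin 18 or 19. Hepatocytes carry the pair of keratins 8 and 18, while intestinal and bile duct cells add keratin 19. Actin filaments turn over between filament and monomer with the help of cofilin, which severs filaments, and of the beta-thymosins, which hold monomers, and microtubules are built from dimers of alpha- and beta-tubulin.

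The libraries held 49634 to 1657412 reads, 9841388 in all, and 1 read was worth 0.603 to 20.1 CPM (reads scaled to the same total in every library, without division by transcript length). The shallowest were both libraries of HepG2 co-culture with FFAs, at 147096 reads in replicate 1 and 49634 in replicate 2, while the Caco-2 libraries held 353871 to 974654. A count of 0 allowed a level of up to 3 reads, or 1.81 to 60.4 CPM depending on the library. Mitochondrial transcripts took 6.29 to 10.6% of HepG2 reads and 2.73 to 3.97% of Caco-2 reads. Of 18 liver markers, 15 were higher in every HepG2 library than in any Caco-2 library, and 1, VTN, was higher in every Caco-2 library. The summed level of the 18 was 51203 to 81959 CPM in HepG2 against 7239 to 9472 CPM in Caco-2. Of 18 intestinal markers, 7 were higher in every Caco-2 library and 1 was higher in every HepG2 library. The sums of the 18 were 1817 to 2255 CPM in Caco-2 against 346 to 564 CPM in HepG2. The labels' extraction text names myoblasts, but 8 muscle markers summed to at most 16.2 CPM and 8 fibroblast markers to at most 12.8 CPM in any library.

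Several of these genes have close relatives whose reads an aligner must tell apart. The first coding bases of 3 pairs are shown because they give the scale of that difference. They are from the canonical transcripts of GENCODE 44 on GRCh38, each within 1 coding exon that begins with the start codon, and capitals mark the bases at which the members of a pair differ. ACTB and ACTG1 differed at 10 of 60 bases, TUBB and TUBB4B at 7 of 57, and TMSB10 and its relative TMSB4X at 15 of 60.
ACTB (chr7:5529598-5529657, minus strand): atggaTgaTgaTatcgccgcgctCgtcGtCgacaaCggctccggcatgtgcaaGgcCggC
ACTG1 (chr17:81512295-81512354, minus strand): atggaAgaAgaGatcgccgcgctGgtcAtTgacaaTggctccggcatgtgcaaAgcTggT
TUBB (chr6:30720507-30720563, plus strand): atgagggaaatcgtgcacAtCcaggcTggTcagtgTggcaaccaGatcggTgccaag
TUBB4B (chr9:137241361-137241417, plus strand): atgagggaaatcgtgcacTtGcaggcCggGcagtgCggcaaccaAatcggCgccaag
TMSB10 (chr2:84906018-84906077, plus strand): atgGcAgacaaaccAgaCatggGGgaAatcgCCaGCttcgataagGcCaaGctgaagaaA
TMSB4X (chrX:12976262-12976321, plus strand): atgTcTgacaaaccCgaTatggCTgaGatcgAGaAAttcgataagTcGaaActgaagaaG

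Over the whole aligned coding sequence, identity was 91.2% for ACTB and ACTG1, 84.6% for TUBB and TUBB4B, and 76.7% for TMSB10 and TMSB4X. It was 97.3% for TUBA1B and TUBA1C and 97.2% for TUBA1B and TUBA1A, so the split of reads among the alpha-tubulin genes is the least certain of those given here. KRT8 and KRT18 lie next to each other on chromosome 12 and overlap by 1084 bases (chr12:52948871-52949954) on opposite strands. Whether reads were counted by strand is not given in the sources used here, so reads from that stretch could have gone to either gene. Pseudogenes were found by name, as the symbol of a gene followed by P and a number. They took 0 to 2.45% of the reads of a gene and its pseudogenes in a line, most for TUBB in HepG2. No pseudogene was listed under such a name for TUBA1B, so its share was not measured.

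Upstream sequences from RefSeq (GRCh38.p14) matched 7 of the 10 genes, all but KRT18, KRT19 and ACTB. The 250 bases before the annotated start were searched on both strands for 4 motifs. These were the CArG box, which serum response factor binds in actin genes, the TATA box as TATAAA, the GC box as GGGCGG and the CCAAT box by its name. The CArG box was found in 1 of the 7 genes, ACTG1, and in 1.16% of 35116 promoters. The exact string TATAAA was found in 0 of the 7 and in 10.7% of all promoters, the GC box in 5 of the 7 and in 42.6%, and the CCAAT box in 4 of the 7 and in 32.0%. Other forms of the TATA box were not searched, such as TATATAA, which the TMSB10 stretch below contains. No position was shared between different motifs in the stretches shown. The 130 bases before the start of ACTG1 are shown because they hold that CArG box, which begins 94 bases upstream. Those of TUBA1B and TMSB10 are shown as the 2 other genes whose levels are followed most closely below. Capitals mark matches to any of the 4 motifs on either strand.
ACTG1 (chr17:81512800-81512929, minus strand): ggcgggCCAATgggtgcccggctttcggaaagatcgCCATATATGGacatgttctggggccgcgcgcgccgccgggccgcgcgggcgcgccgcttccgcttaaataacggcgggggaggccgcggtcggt
TUBA1B (chr12:49131396-49131525, minus strand): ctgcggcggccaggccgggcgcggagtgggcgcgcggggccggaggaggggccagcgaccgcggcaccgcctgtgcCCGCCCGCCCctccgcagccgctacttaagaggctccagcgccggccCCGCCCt
TMSB10 (chr2:84905526-84905655, plus strand): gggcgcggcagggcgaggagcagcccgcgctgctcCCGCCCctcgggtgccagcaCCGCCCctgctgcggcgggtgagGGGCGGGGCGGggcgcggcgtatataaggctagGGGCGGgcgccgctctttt

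Of the 10 genes, 9 were lower in HepG2 than in Caco-2 and passed the test. The gap was widest for KRT19, and TUBB did not pass, with a mean of 273 CPM in HepG2 against 268 CPM in Caco-2. Together the 10 genes took 0.865 to 1.13% of all reads in Caco-2 and 0.339 to 0.540% in HepG2, with no overlap between the lines. The comparison used limma on log2(CPM + 1) over all 16 libraries, averaged over the 4 conditions of each line, with Benjamini-Hochberg adjustment over 17544 genes. Of all genes tested, 17.9% were lower in HepG2 and 12.5% higher at an adjusted p under 0.05. The median difference of the 10 genes was -1.32 on the log2 scale, beside -0.16 over all genes tested and -0.09 over the 1198 genes averaging 100 CPM or more. For 6 of the 10 every HepG2 library lay below every Caco-2 library, a separation seen in 5.97% of all genes tested and in 25.1% of those at 100 CPM or more. In bulk RNA, a change in the level per cell cannot be told apart from a change in how many cells express a gene.

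**Figure D1:**
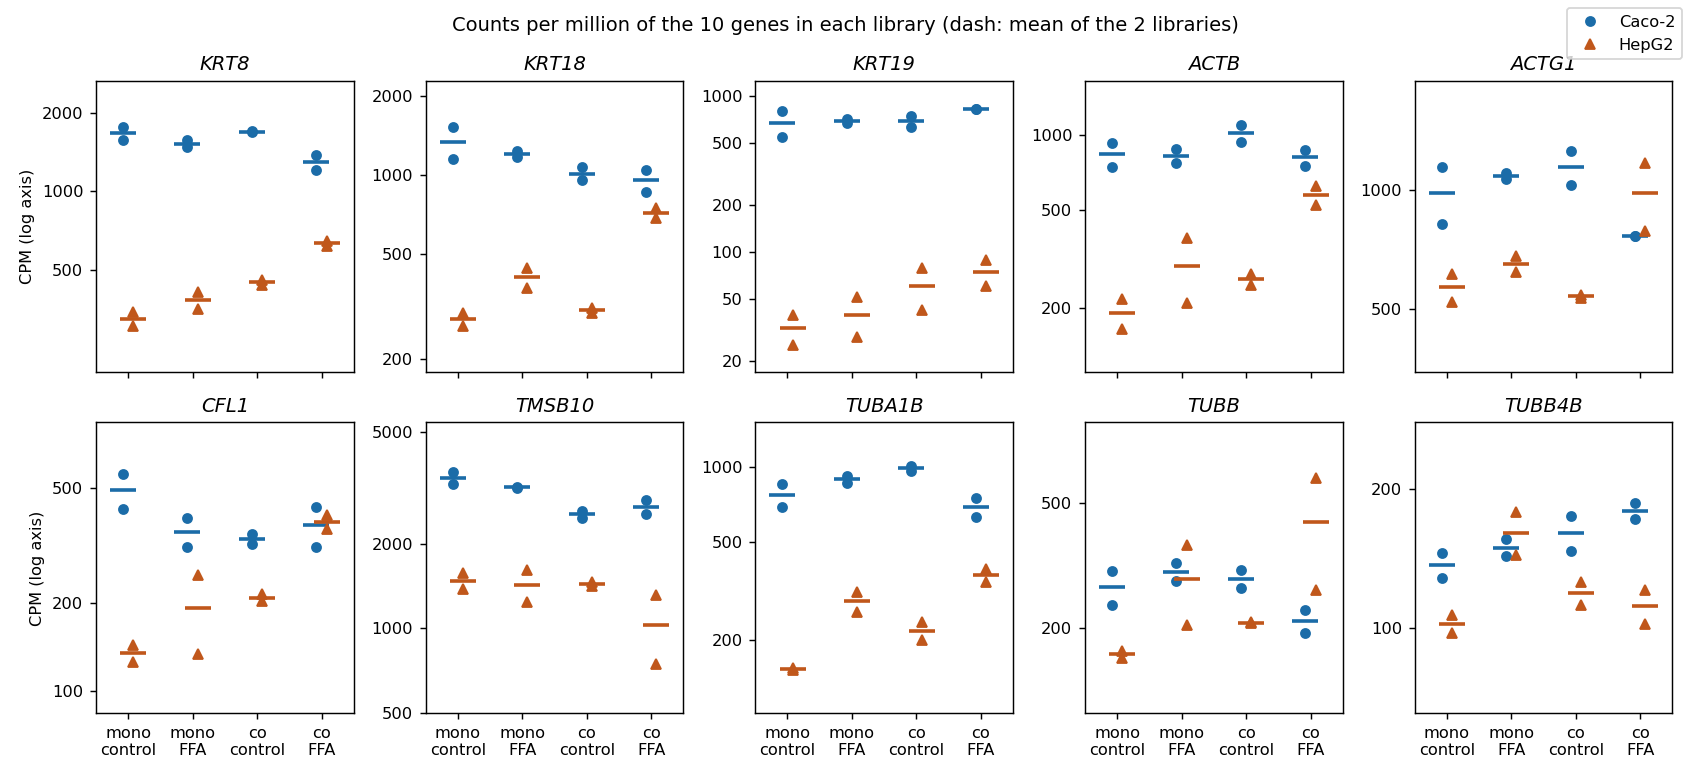
CPM (log axis) of the 10 genes in each of the 16 libraries, by culture and FFAs treatment, with Caco-2 as blue circles, HepG2 as orange triangles and a dash at the mean of the 2 libraries. Caco-2 KRT8 lies at 1212 to 1768 CPM and HepG2 KRT8 at 304 to 645 CPM, while the lines overlap for ACTG1, CFL1, TUBB and TUBB4B.

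Among the keratins, KRT19 (ENSG00000171345, chr17:41523617-41528308, minus strand), a type I keratin of simple and ductal epithelia, gave the strongest contrast. Its lowest, median and highest levels were 542, 724 and 828 CPM in the 8 Caco-2 libraries and 25.4, 46.6 and 88.4 CPM in the 8 HepG2 libraries. Every HepG2 library was thus far below every Caco-2 library, although KRT19 was read in all of them, from 256 reads in HepG2 in all. The difference was -3.87 ± 0.17 (SE) on the log2 scale, or 14.6-fold lower (adjusted p = 6.0e-10).

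KRT8 (ENSG00000170421, chr12:52897187-52949954, minus strand), the type II keratin of simple epithelia, ran from 1212 to 1768 CPM in Caco-2 with a median of 1575, and from 304 to 645 CPM in HepG2 with a median of 424. The lines did not overlap, and the difference was -1.83 ± 0.06 (adjusted p = 1.66e-11). KRT18 (ENSG00000111057, chr12:52948871-52952906, plus strand), the usual partner of KRT8, had a lowest, median and highest level of 859.8, 1104 and 1513 CPM in Caco-2 and of 267, 341 and 748 CPM in HepG2. Its difference was -1.48 ± 0.07 (adjusted p = 2.62e-09). The highest HepG2 values of both genes came from co-culture with FFAs and were the closest to Caco-2.

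Of the actins, ACTB differed between the lines more than ACTG1 did. ACTB (ENSG00000075624, chr7:5526409-5563902, minus strand), cytoplasmic beta-actin, had a lowest, median and highest level of 740, 877 and 1103 CPM in Caco-2 and of 165, 262 and 625 CPM in HepG2, and its difference was -1.53 ± 0.12 (adjusted p = 2.25e-07). ACTG1 (ENSG00000184009, chr17:81509413-81523847, minus strand), cytoplasmic gamma-actin, had 763, 1044 and 1249 CPM in Caco-2 and 522, 619 and 1169 CPM in HepG2. The lines overlapped for ACTG1 through HepG2 co-culture with FFAs, and its difference was -0.56 ± 0.09 (adjusted p = 0.000292).

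TMSB10 (ENSG00000034510, chr2:84905656-84906671, plus strand) encodes thymosin beta 10, which binds actin monomers. It had 2478, 3019 and 3618 CPM as lowest, median and highest level in Caco-2 and 745, 1398 and 1612 CPM in HepG2, with no overlap, and a difference of -1.17 ± 0.10 (adjusted p = 4.07e-07). CFL1 (ENSG00000172757, chr11:65823022-65862026, minus strand), non-muscle cofilin, had 312, 369 and 558 CPM in Caco-2 and 125, 209 and 403 CPM in HepG2. Its ranges overlapped, and the difference was -0.84 ± 0.13 (adjusted p = 0.000178).

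The tubulins were the least uniform of the families. TUBA1B (ENSG00000123416, chr12:49127782-49131397, minus strand), a widely expressed alpha-tubulin, had 631, 861 and 1014 CPM in Caco-2 and 151, 248 and 388 CPM in HepG2, a difference of -1.77 ± 0.08 (adjusted p = 5.78e-10). TUBB (ENSG00000196230, chr6:30717435-30725538, plus strand), a common beta-tubulin, had 193, 275 and 323 CPM in Caco-2 and 160, 208 and 604 CPM in HepG2. Its difference of -0.09 ± 0.16 did not pass (adjusted p = 0.687), and the sign became positive, at 0.055, without HepG2 co-culture with FFAs replicate 1, and at 0.012 without HepG2 mono-culture with FFAs replicate 1. TUBB4B (ENSG00000188229, chr9:137241287-137243707, plus strand), another broadly expressed beta-tubulin, had 128, 151 and 187 CPM in Caco-2 and 97.5, 116 and 178 CPM in HepG2. Its difference of -0.36 ± 0.10 passed (adjusted p = 0.0152) but did not when all libraries were thinned to the same number of reads (-0.26, adjusted p = 0.465) or when mitochondrial and ribosomal RNA genes were left out (-0.28, adjusted p = 0.0574).

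**Figure D2:**
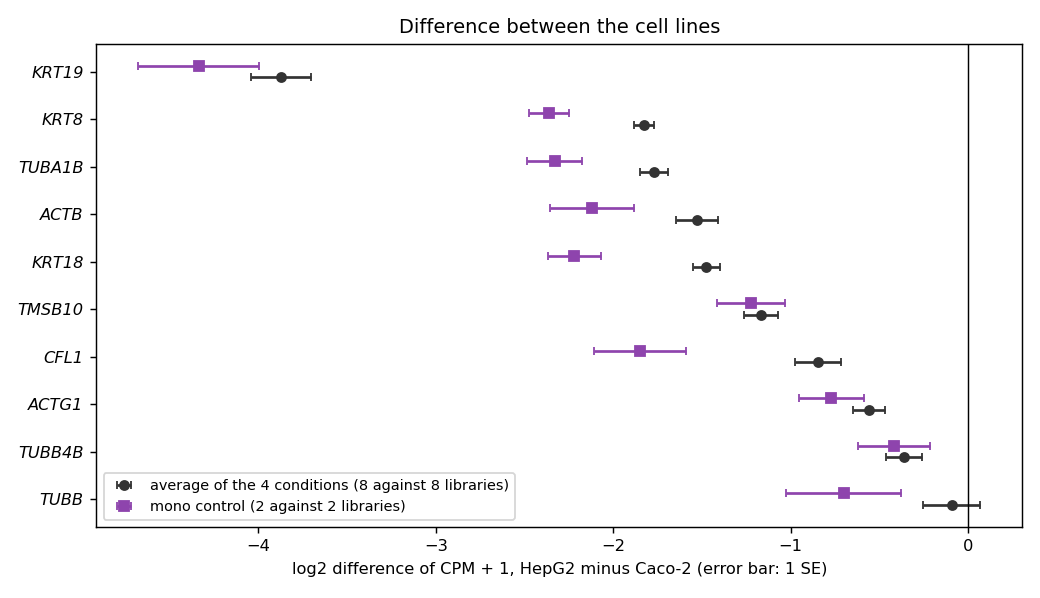
Difference between the lines (HepG2 minus Caco-2, log2 of CPM + 1) of each gene, averaged over the 4 conditions and in mono-culture controls alone, with bars of 1 SE. The averages run from -3.87 for KRT19 to -0.09 for TUBB, and the mono-culture control differences from -4.34 to -0.42.

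In the mono-culture controls alone, where neither FFAs nor the other line was present, the differences were wider. Of the 10 genes 8 were lower in HepG2 at an adjusted p under 0.05, as were 5.77% of all genes tested. For HepG2 minus Caco-2, KRT19 had -4.34 ± 0.34 on the log2 scale (adjusted p = 1.33e-06), KRT8 had -2.36 ± 0.11 (adjusted p = 1.38e-08) and TUBA1B had -2.33 ± 0.16 (adjusted p = 2.67e-07). TUBB had -0.70 ± 0.32 (adjusted p = 0.225) and TUBB4B had -0.42 ± 0.20 (adjusted p = 0.256). All 10 genes had both HepG2 libraries below both Caco-2 libraries in this comparison, as had 23.2% of all genes tested and 45.2% of genes at 100 CPM or more. These comparisons share their libraries with the averages above.

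The balance between related genes also differed between the lines. Such ratios are taken within a library, so the sequencing depth and total cancel, but they are not divided by transcript length and are compared only between libraries. The ratio of ACTB to ACTG1 ran from 0.698 to 1.14 in Caco-2 and from 0.316 to 0.664 in HepG2. That of KRT19 to KRT18 ran from 0.474 to 0.963 in Caco-2 and from 0.0760 to 0.254 in HepG2. That of TUBA1B to the sum of TUBB and TUBB4B ran from 1.57 to 2.24 in Caco-2 and from 0.472 to 1.06 in HepG2. In none of these 3 ratios did the lines overlap, and the differences on the log2 scale were -0.97 ± 0.16, -2.42 ± 0.22 and -1.60 ± 0.14 (SE). In each case the two-sided exact permutation test over 8 against 8 libraries gave its smallest possible p, 0.000155, or 0.000363 after Benjamini-Hochberg adjustment over the 7 ratios compared. That test takes the libraries of a line as exchangeable across their 4 conditions.

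The ratio of KRT8 to KRT18 overlapped between the lines, at 1.17 to 1.77 in Caco-2 against 0.827 to 1.48 in HepG2. Its difference was -0.35 ± 0.13 (exact permutation p = 0.0208, adjusted p = 0.0364), and it lost the call when any 1 of 9 of the 16 libraries was left out. The other 3 ratios did not pass: TUBB to TUBB4B had a difference of 0.27 ± 0.25, CFL1 to the sum of both actins 0.09 ± 0.17, and TMSB10 to the sum of both actins -0.23 ± 0.30.

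**Figure D3:**
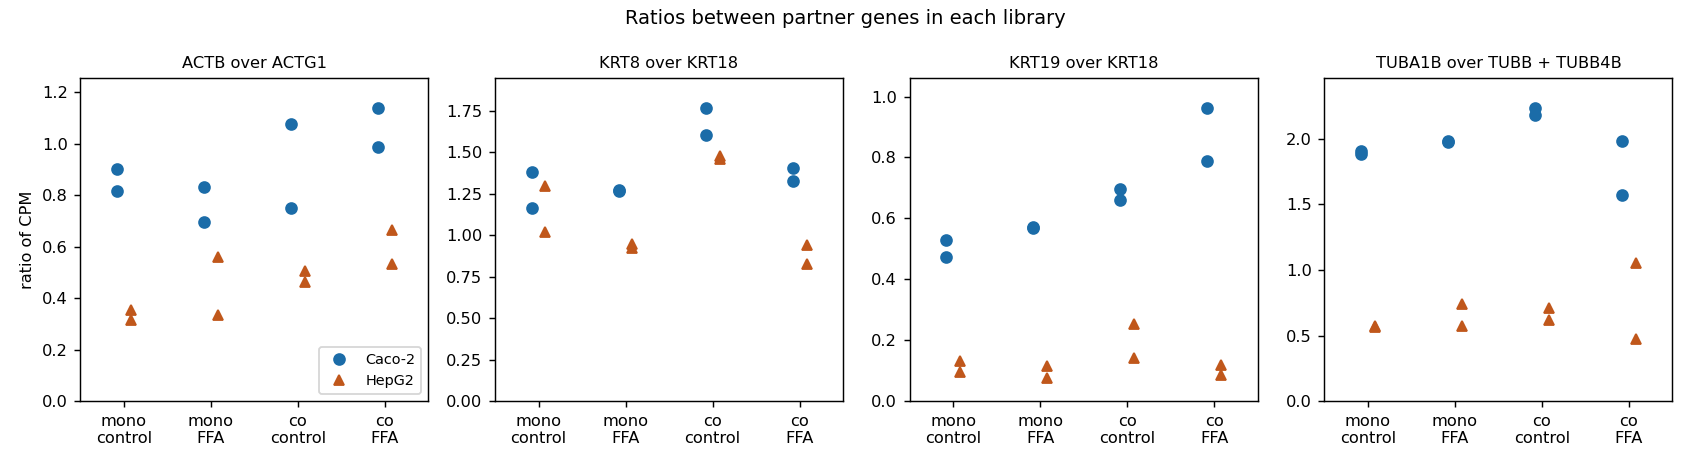
Within-library ratios (linear axis) of ACTB to ACTG1, KRT8 to KRT18, KRT19 to KRT18 and TUBA1B to the sum of TUBB and TUBB4B, by culture and treatment, in Caco-2 (blue circles) and HepG2 (orange triangles). The ACTB to ACTG1 ratio is at most 0.664 in HepG2 and at least 0.698 in Caco-2, while the KRT8 to KRT18 ratio overlaps between the lines.

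The other isotypes of each family gave further differences. ACTB took 41.1 to 53.3% of the reads of 7 actin genes in Caco-2 against 23.3 to 37.9% in HepG2, where ACTG1 took 57.1 to 73.8%. ACTA2, smooth-muscle alpha-actin, took 2.21 to 4.93% of actin reads in HepG2, or 15.6 to 80.6 CPM, and had 0 reads in all 8 Caco-2 libraries, where a count of 0 allows up to 3.08 to 8.48 CPM. Among alpha-tubulins TUBA1B took 67.3 to 73.1% of reads in Caco-2 against 49.2 to 71.3% in HepG2, and TUBA1C took 23.6 to 30.0% and 26.3 to 44.7%. Among 9 beta-tubulin genes TUBB3, known as the neuronal isotype, took 9.47 to 19.1% of reads in HepG2 and 0 to 2.51% in Caco-2. TMSB4X, the thymosin beta 4 gene whose coding start is set beside that of TMSB10 above, had 314 to 637 CPM in Caco-2 against 0 to 11.7 CPM in HepG2.

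Within HepG2, several of these genes had higher levels with FFAs, and 1 of the 10, KRT18, rose at an adjusted p under 0.05. KRT18 was at 297 and 267 CPM in mono-culture controls and at 372 and 444 CPM in mono-culture with FFAs. In co-culture it was at 311 and 299 CPM in controls and at 748 and 685 CPM with FFAs, the latter from 110 and 34 reads. All 4 libraries with FFAs were above all 4 controls. Averaged over both cultures the change was +0.88 ± 0.11 on the log2 scale, or 1.84-fold (limma, adjusted p = 0.0372 over 14430 genes). Of all genes tested 0.0762% passed in this comparison and 0.0554% passed as higher. The call was lost with a pseudocount of 0.1 (0.88, adjusted p = 0.0723), with median-ratio rescaling (0.59, adjusted p = 0.103), with edgeR on recovered reads (0.43, adjusted p = 0.0757) and with thinned libraries (0.97, adjusted p = 0.130). It was also lost without HepG2 co-culture control replicate 2 (0.86, adjusted p = 0.0853), without co-culture with FFAs replicate 2 (0.91, adjusted p = 0.0751) and without mono-culture control replicate 1 (0.92, adjusted p = 0.180).

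TUBA1B was at 151 and 153 CPM in HepG2 mono-culture controls and at 259 and 313 CPM with FFAs, and in co-culture at 237 and 199 CPM in controls and at 388 and 343 CPM with FFAs. Its co-culture values with FFAs came from 57 and 17 reads. All 4 libraries with FFAs again lay above all 4 controls, and the change was 0.82 ± 0.13 (adjusted p = 0.0706). ACTB was at 218 and 165 CPM in mono-culture controls and at 209.6 and 382 CPM with FFAs, and in co-culture at 276 and 247 CPM in controls and at 523 and 625 CPM with FFAs. Its co-culture values with FFAs came from 77 and 31 reads. The mono-culture groups of ACTB overlapped and the co-culture groups did not, and its average change was 0.85 ± 0.20 (adjusted p = 0.173).

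The libraries of a group were unequal for some genes. TUBB was at 265 and 604 CPM in HepG2 co-culture with FFAs, and ACTG1 at 789 and 1169 CPM, so that replicate 2, the library of 49634 reads, gave the higher value of both. These values came from 39 and 30 reads of TUBB and 116 and 58 reads of ACTG1. Their average changes with FFAs were 0.84 ± 0.27 for TUBB (adjusted p = 0.242) and 0.51 ± 0.13 for ACTG1 (adjusted p = 0.192). CFL1 had 0.66 ± 0.20 (adjusted p = 0.224), KRT8 0.36 ± 0.10 (adjusted p = 0.207), KRT19 0.29 ± 0.33 (adjusted p = 0.712) and TUBB4B 0.28 ± 0.16 (adjusted p = 0.491). TMSB10 was the only one of the 10 with a negative value, -0.30 ± 0.17 (adjusted p = 0.477).

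At an unadjusted p under 0.05, 7 of the 10 genes were higher with FFAs in HepG2, as were 6.76% of all genes tested, and none was lower, beside 7.06% of all genes. The median change of the 10 genes was 0.59, beside -0.07 over all genes tested and 0.01 over the 1167 genes at 100 CPM or more. For 3 genes, KRT18, TUBA1B and ACTG1, the 4 libraries with FFAs lay above the 4 controls, a separation found in 4.16% of all genes tested and in 13.1% of those at 100 CPM or more. Rescaling moved these values. Median-ratio rescaling shifted the median of all genes by -0.18 and edgeR's by -0.24. Under edgeR the 1 gene of the 10 that passed was TMSB10 (-0.68, adjusted p = 5.92e-05) instead of KRT18. The share of all genes passing under edgeR is not given here, so that call cannot be read against it. Without HepG2 co-culture with FFAs replicate 1, 5 genes passed: KRT18, ACTG1, TUBA1B and TUBB as higher, and TMSB10 as lower. In that fit 11.9% of all genes tested passed, against 0.0762% with all libraries, so the 5 genes are to be read against a larger share.

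**Figure D4:**
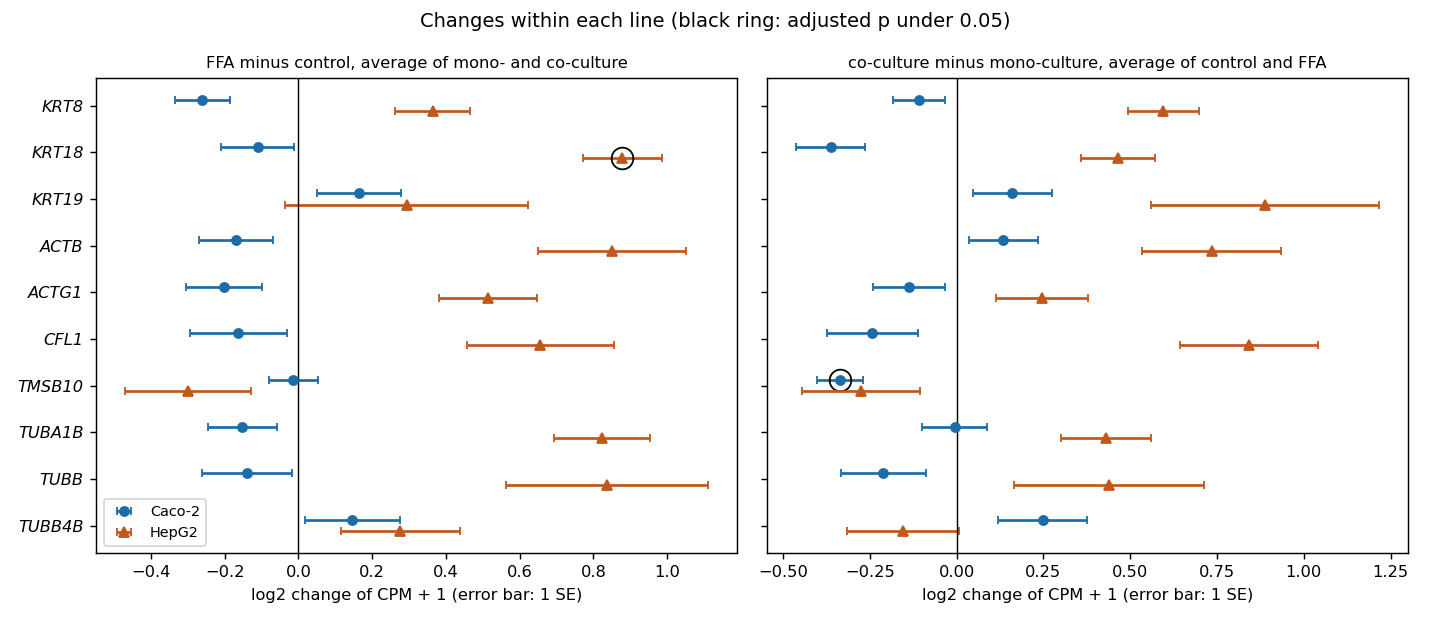
Change of each gene within a line, in log2 of CPM + 1 with bars of 1 SE, for FFAs minus control averaged over both cultures and for co-culture minus mono-culture averaged over both treatments. Rings mark an adjusted p under 0.05, which KRT18 reached with FFAs in HepG2 (0.88) and TMSB10 in co-culture in Caco-2 (-0.33).

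Transcript length moved with these changes. In HepG2 the median FFAs change of genes at 100 CPM or more was -0.24 for 409 genes with a canonical transcript under 1000 nucleotides, 0.16 for 334 genes of 1000 to under 2000, 0.21 for 181 genes of 2000 to under 3000 and 0.14 for 240 genes of 3000 or more. In Caco-2 the same medians lay between -0.03 and 0.02, but the 2 cultures ran in opposite directions there. In Caco-2 co-culture the median was 0.06 under 1000 nucleotides and -0.09, -0.08 and -0.08 in the longer classes. In Caco-2 mono-culture it was -0.03 under 1000 nucleotides and 0.05, 0.04 and 0.07 in the longer classes. The transcript of TMSB10 is 461 nucleotides long and those of the other 9 genes are 1245 to 2515, and in HepG2 each of the 10 changes had the sign of the median of its length class. After each gene's value was corrected for the trend with transcript length in every library, KRT18 had 0.73 (adjusted p = 0.046), TUBA1B 0.63 (adjusted p = 0.172), ACTB 0.64, and TMSB10 turned to 0.032. The share of reads on ribosomal protein genes, which have short transcripts, was 20.54% and 18.7% in HepG2 co-culture with FFAs replicates 1 and 2 and 21.0 to 25.6% in the other HepG2 groups.

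**Figure D5:**
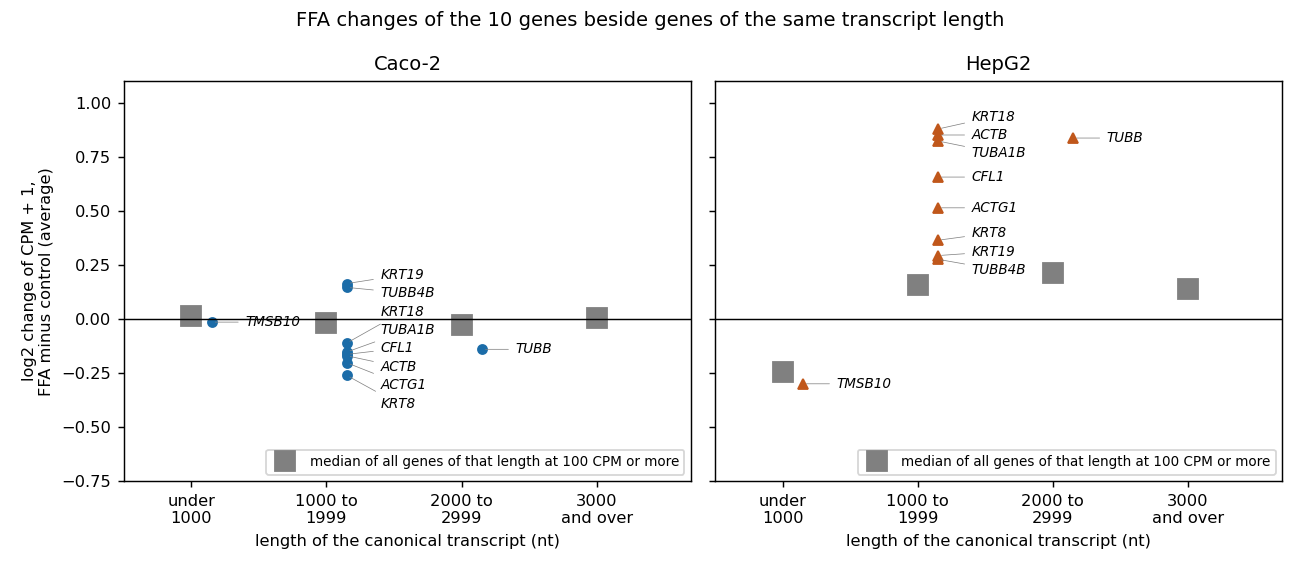
FFAs change of the 10 genes (coloured points, log2 of CPM + 1, FFAs minus control averaged over both cultures) beside the median of all genes of the same transcript length at 100 CPM or more (grey squares), for Caco-2 and HepG2. In HepG2 TMSB10 (-0.30) sits near the -0.24 of short transcripts, while KRT18 (0.88) sits above the 0.16 of its own length class.

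Genes read in Caco-2 alone among the mono-culture controls were also read at low levels in the other HepG2 libraries. A gauge was made of 46 genes at 20 CPM or more in Caco-2 mono-culture controls and at most 0.2 CPM in HepG2 mono-culture controls, so that the latter are at 0 by construction. The summed level of these genes, as a percent of Caco-2 mono-culture controls, was 0.271 to 0.352% in HepG2 mono-culture with FFAs, 0.474 to 0.678% in co-culture controls, and 0.507 and 1.502% in co-culture with FFAs. Multiplied by the Caco-2 level, the last 2 values correspond to 6.73 and 19.96 CPM of KRT18, beside the 748 and 685 CPM found. For KRT19 they correspond to 3.41 and 10.1 CPM, beside 88.4 and 60.4 CPM. Those KRT19 levels rest on 13 and 3 reads, too few for a close comparison.

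Taken by culture, no member passed with FFAs in HepG2 in limma at its main settings, while some alternatives called 1 or more in co-culture. In mono-culture 0 of the 10 passed with FFAs in limma or edgeR, beside 0.0% of all genes tested in limma, and 3 had an unadjusted p under 0.05, all higher (3.04% of all genes). TUBA1B had 0.90 ± 0.18 (adjusted p = 0.712), TUBB4B 0.65 ± 0.23 and KRT18 0.53 ± 0.15 there. In co-culture 0 of the 10 passed in limma, beside 0.0% of all genes tested, while 1 (TMSB10) passed in edgeR, for which the share of all genes is not given here. Of the 10, 7 had an unadjusted p under 0.05, all higher (6.71% of all genes). KRT18 had 1.23 ± 0.15 (adjusted p = 0.051), ACTB 1.13 ± 0.28 (adjusted p = 0.165), TUBB 0.94 ± 0.39, CFL1 0.86 ± 0.28 and ACTG1 0.83 ± 0.19. The test of the difference between the cultures passed for none, with 0.70 ± 0.21 for KRT18 (unadjusted p = 0.0106, adjusted p = 0.676).

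Within-library ratios in HepG2 moved as well, without passing after adjustment. KRT8 to KRT18 was 0.827 to 0.949 in the 4 libraries with FFAs and 1.02 to 1.48 in the 4 controls, a difference of -0.52 ± 0.13. TMSB10 to the sum of both actins was 0.416 to 1.52 with FFAs and 1.65 to 2.30 in controls, a difference of -0.92 ± 0.45. Neither ratio overlapped between treatments, and each gave p = 0.0286 in the two-sided exact permutation test, the smallest that 4 against 4 libraries allow, with an adjusted p of 0.267 over the 28 ratio comparisons within lines.

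Co-culture also came with higher values of several of the 10 genes in HepG2, but 0 of the 10 passed in limma or edgeR, beside 0.0% of all genes tested in limma. KRT8 was at 304 and 346 CPM in mono-culture controls, 353 and 411 CPM in mono-culture with FFAs, 459 and 437 CPM in co-culture controls and 619 and 645 CPM in co-culture with FFAs. Its values in co-culture with FFAs came from 91 and 32 reads. All 4 co-culture libraries lay above all 4 mono-culture libraries, as in 1.12% of all genes tested and 2.49% of those at 100 CPM or more. The average change was 0.59 ± 0.10 (unadjusted p = 0.000339, adjusted p = 0.326). KRT19 had 0.89 ± 0.33 (adjusted p = 0.629), CFL1 0.84 ± 0.20 (adjusted p = 0.506), ACTB 0.73 ± 0.20 (adjusted p = 0.557), KRT18 0.46 ± 0.11 (adjusted p = 0.498) and TUBA1B 0.43 ± 0.13 (adjusted p = 0.597). These 6 genes had an unadjusted p under 0.05 and were higher, as were 3.87% of all genes tested.

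Caco-2 levels varied less. The coefficient of variation over the 8 libraries was 11.9 to 21.9% for the 10 genes in Caco-2, beside a median of 13.8% for genes at 100 CPM or more, and 20.2 to 54.5% in HepG2, beside 18.7%. HepG2 libraries held 49634 to 1657412 reads and Caco-2 libraries 353871 to 974654. The part of counting error in these values was not tested. With FFAs averaged over both cultures 0 of the 10 passed in Caco-2 in limma or edgeR, beside 0.0% of all genes tested in limma. KRT8 alone had an unadjusted p under 0.05 (-0.26 ± 0.07, adjusted p = 0.829), in the lower direction in which 1.73% of all genes had one. KRT8 was at 1768 and 1579 CPM in Caco-2 mono-culture controls, 1570.3 and 1483 CPM in mono-culture with FFAs, 1686 and 1709.6 CPM in co-culture controls, and 1212 and 1384 CPM in co-culture with FFAs. The last group was the lowest, in both libraries.

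In Caco-2 co-culture, 5 of the 10 genes were lower with FFAs at an unadjusted p under 0.05, as were 2.42% of all genes tested, and 0 passed after adjustment in limma or edgeR. TUBA1B was at 1014 and 966 CPM in co-culture controls and at 752 and 631 CPM in co-culture with FFAs, while in mono-culture it was at 857 and 689.8 CPM in controls and at 866 and 924 CPM with FFAs. ACTG1 was at 1024 and 1249 CPM in co-culture controls and at 765 and 763 CPM with FFAs, and in mono-culture at 1141 and 820.2 CPM in controls and at 1063 and 1101 CPM with FFAs. The changes in co-culture were -0.52 ± 0.13 for TUBA1B, -0.57 ± 0.15 for ACTG1, -0.39 ± 0.11 for KRT8, -0.45 ± 0.17 for TUBB and -0.33 ± 0.14 for ACTB, each with an adjusted p of 0.862. Their transcripts are 1627 to 2515 nucleotides long. The medians of those length classes at 100 CPM or more, -0.09 and -0.08, had the same sign in this comparison. The difference between co-culture and mono-culture in the FFAs change was -0.74 ± 0.19 for TUBA1B (unadjusted p = 0.0014) and -0.73 ± 0.21 for ACTG1 (unadjusted p = 0.00343), each with an adjusted p of 0.82.

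TMSB10 fell in Caco-2 co-culture, the only one of the 10 to pass there, beside 0.453% of all genes tested and 0.136% that passed as lower. It was at 3270.4 and 3618 CPM in mono-culture controls and at 3195 and 3177 CPM in mono-culture with FFAs. In co-culture it was at 2627 and 2478 CPM in controls and at 2549.6 and 2861 CPM with FFAs, so all 4 co-culture libraries were below all 4 mono-culture libraries, as for 1.68% of all genes tested and 5.51% of those at 100 CPM or more. The average change was -0.33 ± 0.07 (adjusted p = 0.0457). The call was close to the threshold: it was lost without any 1 of 7 of the 8 libraries (adjusted p from 0.0622 to 0.166) and remained without co-culture with FFAs replicate 2 (adjusted p = 0.0424). It was also lost with a pseudocount of 0.1 (adjusted p = 0.130), with median-ratio rescaling (-0.43, adjusted p = 0.0632) and with thinning (-0.31, adjusted p = 0.252). The summed level of the 18 liver markers in Caco-2 moved with co-culture too, at 9265 to 9472 CPM in the 4 co-culture libraries against 7239 to 8396 CPM in the 4 mono-culture libraries. Of the 17 liver markers tested, 2 passed as higher and 0 as lower in this comparison, and 8 were higher at an unadjusted p under 0.05. Their part in the TMSB10 result was not tested.

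KRT18 had -0.36 ± 0.10 in Caco-2 co-culture (adjusted p = 0.144). It was at 1513 and 1143 CPM in mono-culture controls, 1232 and 1168 CPM in mono-culture with FFAs, 953 and 1065 CPM in co-culture controls, and 859.8 and 1044 CPM in co-culture with FFAs. Here too all 4 co-culture libraries lay below all 4 mono-culture libraries. The ratio of KRT19 to KRT18 was 0.659 to 0.963 in co-culture and 0.474 to 0.572 in mono-culture, a difference of 0.52 ± 0.14 (two-sided exact permutation p = 0.0286, adjusted p = 0.267).

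The change with FFAs differed between the lines for KRT18 and TUBA1B. Tested directly over all 16 libraries, the change in HepG2 minus the change in Caco-2 was 0.99 ± 0.15 for KRT18 (adjusted p = 0.0211) and 0.98 ± 0.16 for TUBA1B (adjusted p = 0.0308), beside 0.0912% of all genes tested that passed and 0.057% that passed as higher. At an unadjusted p under 0.05 the difference was positive for 7 of the 10 genes and for 4.46% of all genes tested. ACTB had 1.02 ± 0.24 (adjusted p = 0.097) and KRT8 0.62 ± 0.11 (adjusted p = 0.0601). In Caco-2 the FFAs changes of the former 2 genes were -0.11 ± 0.10 and -0.15 ± 0.09. Both calls were lost with median-ratio rescaling (0.71, adjusted p = 0.0878, and 0.70, adjusted p = 0.0868), with edgeR (0.36, adjusted p = 0.528, and 0.34, adjusted p = 0.67) and after the correction for transcript length (0.82, adjusted p = 0.0547, and 0.77, adjusted p = 0.056). They were also lost with thinning (1.17, adjusted p = 0.203, and 1.0996, adjusted p = 0.111), without HepG2 co-culture control replicate 2 (0.98 and 0.91, both adjusted p = 0.120) and without HepG2 mono-culture control replicate 1 (1.03, adjusted p = 0.0931, and 0.97, adjusted p = 0.119).

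The change with co-culture differed between the lines for KRT8. The change in HepG2 minus that in Caco-2 was 0.70 ± 0.11 (adjusted p = 0.0346), beside 0.0969% of all genes tested that passed and 0.0228% that passed as higher. At an unadjusted p under 0.05 it was positive for 5 of the 10 genes and for 3.23% of all genes tested. The change was 0.59 ± 0.10 in HepG2 and -0.11 ± 0.07 in Caco-2. KRT18 had 0.83 ± 0.15 (adjusted p = 0.0661) and CFL1 1.08 ± 0.26 (adjusted p = 0.16). The KRT8 call was lost with median-ratio rescaling (0.63, adjusted p = 0.117), edgeR (0.51, adjusted p = 0.376), thinning (0.69, adjusted p = 0.118) and when mitochondrial and ribosomal RNA genes were left out (0.66, adjusted p = 0.0885). It was also lost without HepG2 co-culture control replicate 2 (0.72, adjusted p = 0.116) or without HepG2 mono-culture control replicate 1 (0.66, adjusted p = 0.143). These tests use the same libraries as the changes within each line.

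The other cytoskeleton genes, in 10 lists of 187 genes, also differed mainly between the lines. Of 152 tested in the fit of both lines, 20 (13.2%) were higher and 45 (29.6%) lower in HepG2, beside 12.5% and 17.9% of all genes tested, with a median of -0.29 beside -0.16 over all genes. Within a line, and in the tests of differences between the lines in the FFAs or co-culture change, 0 passed in limma. At an unadjusted p under 0.05, 27 of 137 (19.7%) were higher and 6 (4.38%) lower with FFAs in HepG2, beside 6.76% and 7.06% of all genes tested. The counts of single lists that follow, by line, are likewise to be read against the 12.5% higher and 17.9% lower over all genes.

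Among genes for actin bundling and contraction, 15 of 32 were lower and 1 higher in HepG2, including TAGLN2, which encodes transgelin 2 (-5.22 ± 0.44, adjusted p = 5.09e-07), and MYL9, a myosin light chain (-4.36 ± 0.52, adjusted p = 1.61e-05). Of 30 genes for actin turnover, 9 were lower and 3 higher, led by TMSB4X (-6.60 ± 0.45, adjusted p = 5.59e-08). Of 8 other actins and actin-related genes 2 were higher and 0 lower. These were ACTA2 and ACTA1, skeletal-muscle alpha-actin, whose 29 reads all lay in HepG2.

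Of 10 genes that anchor keratins at junctions, 3 were lower and 0 higher, including JUP, which encodes plakoglobin (-3.55 ± 0.37, adjusted p = 4.31e-06), and PKP2, a desmosomal plakophilin (-3.06 ± 0.33, adjusted p = 6.78e-06). Of 9 other keratins 2 were lower and 0 higher. KRT15, another type I keratin, was at 1.03 to 10.9 CPM in Caco-2 and had 0 reads in HepG2. Of 4 other intermediate filament genes 1 was lower and 0 higher, PRPH, which encodes peripherin (-2.95 ± 0.35, adjusted p = 1.63e-05).

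Of 11 other tubulins 5 were lower and 3 higher, among them TUBB6 (-3.05 ± 0.28, adjusted p = 1.29e-06) and TUBB3 (3.02 ± 0.39, adjusted p = 3.93e-05). Of 22 microtubule-binding genes 3 were lower and 5 higher. MAP7, a microtubule-associated protein of epithelia, was lower at -4.60 ± 0.31 (adjusted p = 5.59e-08). MAP1B was higher at 2.47 ± 0.36 (adjusted p = 0.000101), from 16 reads in HepG2 and 0 in Caco-2. Of 21 genes for the folding of actin and tubulin 5 were lower and 6 higher, led by TBCB, tubulin folding cofactor B (2.47 ± 0.22, adjusted p = 1.03e-06). Of 5 genes of the SRF and MRTF pathway, which controls actin genes, 2 were lower and 0 higher.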

How the data were processed

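Polyadenylated RNA of 16 libraries (8 groups of 2) had been read with a Nanopore PCR-cDNA kit. The submitters' processing notes name minimap2 2.22 and GRCh38, while the study's methods describe STAR and TPM from RSEM for its mRNA sequencing without saying whether for Nanopore reads. The use of strand is not given in the sources used here. The authors' files are labelled TPM, yet the deposited values were whole multiples, file by file, of the value of 1 read (100% of values up to 20 reads and 99.3 to 100% of all values, within 0.1 read), so the authors' values were treated as CPM, reads scaled to a common total without division by length, and reads were recovered from them.

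Values were tested as log2(CPM + 1) with limma 3.58.1 (R 4.3.3), without a replicate block, for genes averaging 1 CPM or more in any group (15454 in Caco-2, 14430 in HepG2 and 17544 in both lines), with a trended prior variance and Benjamini-Hochberg adjustment over all genes tested. The 10 genes, the gene lists and the tests were chosen with earlier results of these data known. Genes named from the lists were the up to 3 of each list with the largest change among those that passed. Alternatives were a pseudocount of 0.1, no filter, a filter at 10 CPM, quantile normalization, median-ratio rescaling, edgeR 4.0.16 on recovered reads, thinning of all libraries to one depth, mitochondrial and rRNA genes left out, ANOVA, a replicate block and each library left out. ANOVA called a gene at an unadjusted p under 0.05 with a range between conditions of at least 1.2-fold. The correction for transcript length and the ratios between genes, tested by exact permutation, were added after the data had been seen. Positions and transcript lengths came from GENCODE 44, which held 60295 of the 60623 identifiers, and promoters from RefSeq. Scripts were tested on simulated data. Limits from a count of 0 (3 reads) cover counting error only.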

Additional observations from a re-analysis of the deposited data

Results flagged for a closer look

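The FFAs change differed between the lines for 2 of the 10 genes by a direct test over all 16 libraries. The change in HepG2 minus the change in Caco-2 was 0.99 for KRT18 and 0.98 for TUBA1B, on the log2 scale. Of all genes tested, 0.0912% passed. Both calls were lost with median-ratio rescaling, edgeR, thinning, the correction for transcript length and without some single libraries. KRT18 was higher in the 4 HepG2 libraries with FFAs than in the 4 HepG2 controls and overlapped between treatments in Caco-2, and the same held for TUBA1B. Such a separation in HepG2 was found in 4.16% of all genes tested.

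The co-culture change differed between the lines for KRT8, by 0.70. Of all genes tested, 0.0969% passed. The call was lost with median-ratio rescaling, edgeR, thinning, without mitochondrial and rRNA genes and without some single libraries. KRT8 was higher in the 4 HepG2 co-culture libraries than in the 4 mono-culture libraries and overlapped between cultures in Caco-2. Such a separation in HepG2 was found in 1.12% of all genes tested.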

How the results depend on the processing

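The fits leave 4 residual degrees of freedom within a line, and both libraries of HepG2 co-culture with FFAs are shallow. Leaving out 1 library leaves a group with 1, which is then assumed to vary like the others. The lower levels of 9 of the 10 genes in HepG2 became 8 to 9 under the alternatives (9 without any 1 library), and 7 to 9 in mono-culture controls (7 to 8 without any 1 library).

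Counts of the 10 genes that passed within a line moved more. Those by ANOVA are at an unadjusted p under 0.05 with a range of at least 1.2-fold, a different threshold from the adjusted p of the others. At an unadjusted p under 0.05, limma's test of any difference held 7 of the 10 in each line. It held 8.17% of all genes tested in Caco-2 and 12.2% in HepG2. In Caco-2, any difference among the 4 conditions (0 genes) gave 2 by ANOVA and 1 with edgeR or a filter at 10 CPM. Co-culture averaged over treatments (1) gave 2 with edgeR or the filter at 10 CPM, 0 with median-ratio rescaling, a pseudocount of 0.1 or thinning, and 0 to 1 without 1 library. Co-culture in controls (0) gave 2 with edgeR and 1 with the filter at 10 CPM. In HepG2, any difference among conditions (0) gave 5 by ANOVA, 3 with edgeR or quantile normalization and 0 to 6 without 1 library. The average FFAs change (1) gave 2 with the filter at 10 CPM or quantile normalization, 0 with median-ratio rescaling, a pseudocount of 0.1 or thinning, and 0 to 5 without 1 library. FFAs in co-culture (0) gave 2 with quantile normalization, 1 with edgeR, no filter, the filter at 10 CPM, a pseudocount of 0.1, length correction or without mitochondrial and rRNA genes, and 0 to 4 without 1 library. Co-culture with FFAs (0) gave 0 to 4, the co-culture average (0) 0 to 2 and the interaction (0) 0 to 1 without 1 library. The line difference in the FFAs change (2) gave 1 with edgeR or quantile normalization, 0 with median-ratio rescaling, thinning or length correction, and 0 to 7 without 1 library. That in the co-culture change (1) gave 2 with the filter at 10 CPM, a pseudocount of 0.1, quantile normalization or length correction, 0 with median-ratio rescaling, thinning or without mitochondrial and rRNA genes, and 0 to 4 without 1 library. The highest count of each of these HepG2 and between-line comparisons came without HepG2 co-culture with FFAs replicate 1, where 5.97 to 18.0% of all genes tested passed. Except where stated, shares of all genes are not set beside the counts under the alternatives, so those counts cannot be read against them. The causes were not tested.

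Signs turned for values that had not passed. The TUBB line difference was -0.24 to 0.055 without 1 library. The HepG2 FFAs average under edgeR was -0.11 for KRT8, -0.12 for KRT19 and -0.23 for TUBB4B. It was -0.028 for KRT19 with quantile normalization, -0.010 for TUBB4B with median-ratio rescaling and 0.032 for TMSB10 with length correction. The line difference of KRT8 in the FFAs change was -0.035 under edgeR.

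Replicate numbers were not taken as pairs, since not every correlation between the deviations of same-numbered libraries was over 0.1. Over all genes tested Caco-2 gave -0.005 to 0.032, while HepG2 pairs gave -0.017 to 0.024. At 100 CPM or more they were -0.0051 to 0.269 in Caco-2, with 4 of 6 over 0.1, and -0.093 to 0.148 in HepG2, with 2 of 6. With the replicate block, the genes passing for the Caco-2 co-culture average went from 70 to 210 of all genes, TMSB10 passed in Caco-2 for any difference among conditions (1 gene) and for co-culture in controls (1 gene), and no other count moved by over 1.5 times.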

Other observations

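Genes whose levels followed those of the 10 most closely were sought among 1197 genes averaging 100 CPM or more, by the root mean square difference of centred log2 levels over the 16 libraries. The genes nearest to KRT19 were CLDN4, a claudin of tight junctions, at 0.41, and RBP2, the retinol-binding protein of enterocytes, at 0.51. CLDN4 was at 491 to 791 CPM in Caco-2 and at 23.5 to 80.6 CPM in HepG2. Nearest to ACTB were SLC25A3, the mitochondrial phosphate carrier, at 0.26, and TUBA1B at 0.28. Nearest to TUBA1B were KRT8 and EPCAM, an epithelial adhesion molecule, both at 0.24. All libraries of a line share that line, so these values mostly follow the difference between the lines.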
